A study of Prunus dulcis and Prunus persica and Prunus persica x Prunus dulcis with 15 samples.

Results

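Transcript levels in mature leaves of peach cv Early Gold were compared with those in mature leaves of almond cv Texas, gene by gene, over the peach gene models counted by RNA-seq. The comparison used 6 of the 15 samples of a study on a cross between these species, namely 3 peach and 3 almond libraries, and covered every row of the count table that carries a peach gene identifier, 22274 of its 22334 features. The other RNA libraries are 3 of the F1 hybrid MB 1.37 of the same cross. They shared the fit and are used below as a further reading of each gene, which is not independent of the comparison. The remaining 6 samples are bisulphite libraries that were not used here. All plants were trees grown in the field without a treatment and with normal watering, and fully expanded leaves were taken from each genotype at the end of September. Each species is represented by 1 cultivar, so that differences between cultivars and between species cannot be told apart.

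Peach and almond are closely related trees of the genus Prunus that can be crossed, which allows the same gene to be read in both species and in a plant that carries both genomes. Transcript levels of a gene can differ between species because its own regulatory sequence differs, because the factors that act on it differ, or because 1 species has lost or rearranged the gene. New gene copies often arise beside the old ones, so that related genes commonly stand next to each other along a chromosome. In the peach identifiers the digit before the letter G gives the chromosome, and the number after it increases along the chromosome.

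The reads of both species were counted on peach transcripts. A lower value in almond can therefore reflect fewer transcripts, a sequence too different to align, or a gene that almond does not have, and these cannot be told apart from the counts. Neighbouring copies of nearly the same sequence can split or share reads, and the part of this in the values was not tested. In whole leaves, fewer cells of a type and less RNA per cell also cannot be told apart. The files do not pair the identifiers with gene names, so the genes are described by level, chromosome and position in the identifier order, and leaf marker genes could not be looked up.

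The peach libraries held 15192678 to 15996851 read pairs, and the almond libraries held 7485763, 17725455 and 8504083. The share of gene counts taken by the 100 most abundant genes was 23.2% ± 0.731 in peach and 21.6% ± 1.46 in almond (SD, n = 3 libraries each, p = 0.3 in a two-sided exact permutation test that cannot go below 0.1). Almond library 2, the deepest, held 112 genes with a single read pair, against 533 and 445 in almond libraries 1 and 3. Peach library 4 held 194, against 368 and 358 in peach libraries 1 and 3. These libraries thus had fewer genes at the lowest values than their replicates, and the counts of genes called are given below with and without them.

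Of the 22274 genes, 19036 held enough reads to be tested, and 4077 of these, or 21.4%, differed between the species. To be called, a gene needed an adjusted p under 0.05 (quasi-likelihood test of edgeR, Benjamini-Hochberg) and levels at least 2-fold apart, a log2 fold change of 1. In peach 2119 genes were higher (11.1%) and 1958 were lower (10.3%) than in almond. The directions were close to balanced, since 52.0% of the calls were higher in peach. This share was 48.02% when library totals alone were used for scaling and 49.9% without almond library 2 and peach library 4, where 1880 genes were higher and 1886 lower. Without the minimum fold, 6205 genes had an adjusted p under 0.05.

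The called genes were mostly less abundant than the rest. The unit of level is CPM, the counts of a gene relative to the size of its library, which was scaled with TMM, edgeR's correction for differences in library composition. The median level over the 6 libraries was 8.23 CPM for genes higher in peach, 7.44 CPM for genes lower in peach and 18.7 CPM for genes not called. Together the called genes held 15.2% of all gene CPM in peach and 12.4% in almond. The values of the 3 libraries of each species did not overlap in 98.2% of the called genes, and in 45.3% of all tested genes.

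A gene that was not called was not thereby shown to be equal in both species. For 7989 genes, or 42.0%, the 95% interval of the log2 fold change lay within 1 in both directions, so that a difference of 2-fold or more is outside their interval. Another 6970 genes (36.6%) were not called, but had an interval that reached beyond 2-fold. The 3238 genes that were not tested carried 0.0305% of all gene counts, and 559 of them had no read in any peach or almond library.

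The fitted fold changes were centred near 0. The median log2 fold change of all tested genes was 0.00, the quartiles were −0.51 and 0.55, and 48.3% of the genes lay within 0.5 of 0. The tails were long on both sides, with the 5% and 95% quantiles at −2.78 and 3.10 and the 1% and 99% quantiles at −7.99 and 9.02. Pairs of libraries gave the scale of the difference beside that of the replicates. With 0.5 CPM added to each value, 28.2% to 31.3% of the tested genes were at least 2-fold apart in the 9 pairs of a peach and an almond library, against 6.21% to 11.7% in the 3 pairs of peach libraries and 8.89% to 11.4% in the 3 pairs of almond libraries. No pair from different species overlapped with the pairs of replicates in this share.

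**Figure D1:**
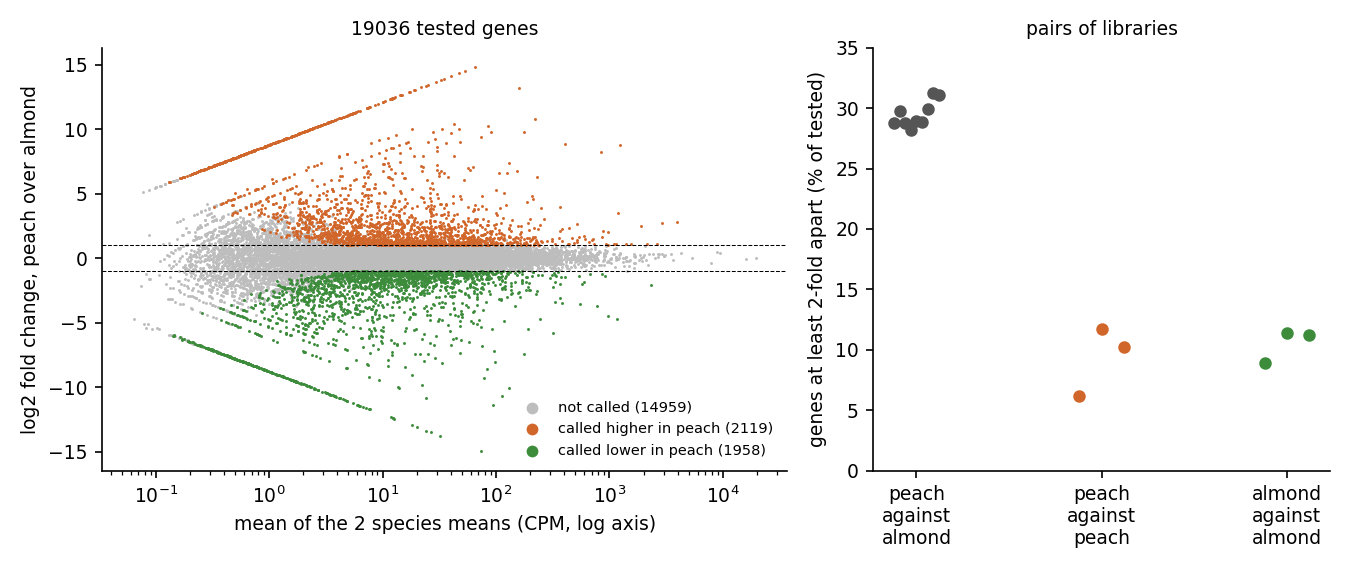
Left, log2 fold change of peach over almond (vertical axis) against the mean of the species means (CPM, log axis) for each tested gene, with 2119 genes called higher in peach, 1958 called lower and the rest in grey. The dashed lines mark a 2-fold difference, and the straight outer bands are genes with no reads in 1 of the species, whose fitted fold change is not a measured size. Right, percent of tested genes at least 2-fold apart in each pair of libraries (1 point per pair), where the pairs of a peach and an almond library lie at 28.2% to 31.3% and all pairs of replicates lie at or below 11.7%.

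Among the called genes, 1222 were at least 4-fold higher in peach and 1120 at least 4-fold lower, 693 and 595 were at least 16-fold apart, and 517 and 378 at least 64-fold apart. The largest of these folds came mainly from genes that were not detected in 1 of the species, which here means at most 3 read pairs in each of its libraries. Of the 487 genes at least 256-fold apart, 470 were of this kind, whereas of the 1735 called genes between 2-fold and 4-fold none was. In all, 541 of the genes higher in peach (25.5%) were not detected in almond, and 412 of the genes lower in peach (21.0%) were not detected in peach. Such a gene could enter the test through reads in 1 genotype alone, and the share over all tested genes is not given here. The limit stood at up to 0.382 CPM in almond and up to 0.200 CPM in peach, so these counts are not compared between the species.

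The fold change of an undetected gene is known only as a lower bound. With these genes set at their bound, computed against 3 read pairs in the library where they weigh most (0.200 CPM in peach, 0.382 CPM in almond), the median called gene was 3.79-fold higher in peach, in place of 5.39-fold as fitted. For genes lower in peach the median was 4.34-fold at the bound and 4.89-fold as fitted. At the bound, 91 genes were at least 64-fold higher and 72 at least 64-fold lower. Almond libraries 1 and 3 were the shallowest, so that the bound was weaker for genes absent in almond, and 91 calls higher in peach but 11 calls lower in peach had a bound under 2-fold.

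Leaving such genes out did not leave the called set empty. In the 15524 tested genes with more than 3 read pairs in all 6 libraries, 2637 were called (16.99%), of which 1333 were higher and 1304 lower in peach. Their median absolute log2 fold change was 1.65.

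A few genes show the size that was reached between well measured levels. Prupe.4G225300.1, a gene of chromosome 4, had 2285, 2558 and 2616 CPM in the peach libraries, against 3.31, 6.01 and 7.93 CPM in the almond libraries. Its log2 fold change was 8.75 ± 0.33 (SE, adjusted p = 2.1e-08 in edgeR's test), and the hybrid libraries stood at 890, 1023 and 1031 CPM. It was the largest fold higher in peach among genes with reads above the detection limit in every library. In the other direction, Prupe.8G262800.1 of chromosome 8 had 0.585, 1.06 and 0.599 CPM in peach, against 159, 173 and 258 CPM in almond (log2 fold change −8.03 ± 0.30, adjusted p = 1.8e-08). In the hybrid it reached 97.6, 101 and 106 CPM. Within each species the 3 libraries of both genes were close together beside the gap between the species.

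Not every large fold rested on all libraries. Among the 6 largest folds higher in peach, a gene of chromosome 1 had 13.2, 2.59 and 361 CPM in peach libraries 1, 3 and 4, against 0.764, 1.10 and 0.829 CPM in almond. A gene of chromosome 6 had 14.4, 8.88 and 316 CPM in peach, against 1.27, 0.552 and 1.07 CPM in almond. Among the 6 largest folds lower in peach, 1 gene had 0.325, 1.13 and 2.53 CPM in peach, against 27.5, 405 and 18.2 CPM in almond libraries 1, 2 and 3. All 3 were called and their species did not overlap, but their size was set by 1 library. Over all calls, 23 genes higher in peach had 1 library at 5 times the peach median or more, and in all 23 it was peach library 4. Of the genes lower in peach 8 had such an almond library, which was library 2 for 6 of them.

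The share of genes called depended on expression level, and it was highest below the middle. The tested genes were divided into 10 groups of equal size by their mean CPM over the 6 libraries. From the lowest to the highest group the share called was 24.4%, 27.8%, 34.2%, 30.8%, 24.3%, 17.6%, 17.1%, 13.6%, 12.5% and 11.9%, beside 21.4% over all genes. The third group, between 2.32 and 5.12 CPM, was called about 3 times as often, as a share, as the highest, which ran from 108.0 to 19499 CPM.

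The fitted differences were largest in the lowest groups and small in the highest. The median absolute log2 fold change was 1.78 in the lowest group, 0.90 in the third, 0.51 in the fifth and 0.29 in the highest. The precision changed as well, with a median width of the 95% interval of 6.33 log2 units in the lowest group and 0.742 in the highest. In the lowest group the interval was thus much wider than a 2-fold difference. A weak gene could also enter the test through reads in 1 genotype alone. Both the error and this filter can enlarge the fitted folds at low levels, and their part in the fall was not tested. With the counts halved, so that a read pair counts once, 880 of the 1904 genes of this group still passed the filter, and 31.0% of them were called, beside 27.8% of the same genes with the counts as deposited. A simulation used the mean levels and library sizes of these data, with a spread that depended on level alone. There the test called 24 of 75 genes changed 2-fold, 56 of 70 changed 4-fold and 48 of 55 changed 8-fold. A gene changed exactly 2-fold stands on the minimum fold, so that many are missed by construction. In the simulation 18885 of 19085 features were unchanged, unlike in these data. Its shares therefore do not measure how often real differences were missed.

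The share called also peaked in the third group when the level was read from the hybrid libraries, which are in neither group of the contrast but shared the filter and the estimate of the spread. With genes grouped by their mean CPM in the 3 hybrid libraries, the share called was 25.8% in the lowest group, 33.1% in the third group, 23.0% in the fifth and 12.3% in the highest. When genes were grouped by the mean of the species in which they were higher, it was 18.5%, 33.0% and 17.0% in the lowest, the third and the highest group.

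**Figure D2:**
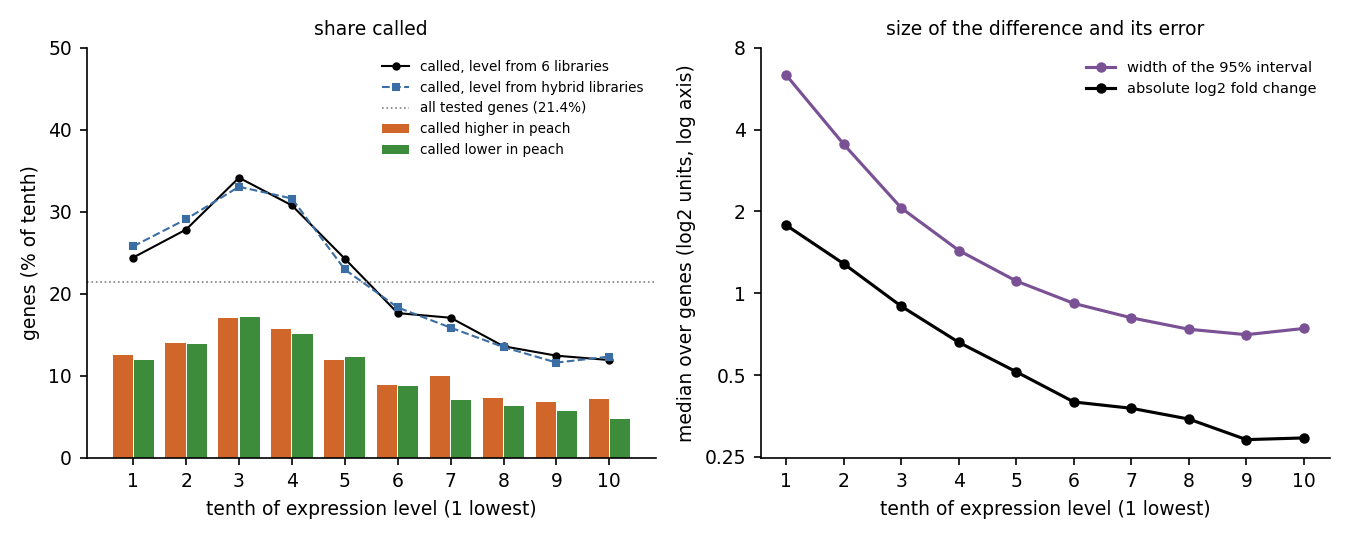
Left, percent of genes called in 10 groups of expression level from lowest to highest, with bars for genes called higher and lower in peach, a black line for both together, a blue dashed line for groups made from the hybrid libraries and a dotted line at the 21.4% of all tested genes. The black line peaks at 34.2% in the third group and ends at 11.9%. Right, the median width of the 95% interval and the median absolute log2 fold change in the same groups (log2 units, log axis), which both decline, to 0.742 and 0.29 in the highest group.

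At high levels more of the calls were higher than lower in peach, beside 11.1% higher and 10.3% lower over all tested genes. In the highest of the 10 groups 137 genes were higher and 90 lower in peach (11.9% called), and among the 100 most abundant genes 14 were higher and 4 lower (18% called). Several of the 14 were close together on chromosome 1. Genes of the run at 498100 to 498900, described below, ranked 15, 19, 31, 49 and 63 by level, and Prupe.1G475400.1 and Prupe.1G475800.1 ranked 8 and 25. Over the alternative settings the counts among these 100 ranged between 6 and 17 higher and between 2 and 6 lower. Among the 1000 most abundant genes 83 were higher and 48 lower (13.1% called, beside 21.4% of all tested genes).

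The most abundant called gene was Prupe.1G475400.1 of chromosome 1, the eighth gene by level over the 6 libraries. It had 6218, 6302 and 8329 CPM in peach, against 967, 781 and 1240 CPM in almond. The log2 fold change was 2.80 ± 0.31 (SE, adjusted p = 4.5e-05, edgeR), and the hybrid libraries had 1350, 3008 and 2842 CPM. The lowest peach library was thus 5 times the highest almond library. The most abundant gene lower in peach was Prupe.1G021800.1, with 482, 1651 and 463 CPM in peach, against 3187, 5981 and 2055 CPM in almond (log2 fold change −2.11 ± 0.52, adjusted p = 0.0085, edgeR). Its highest peach value, in library 3, came near its lowest almond value, in library 3. Without almond library 2 and peach library 4 its log2 fold change was −1.30 with an adjusted p of 0.092, so this call was lost.

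The most abundant transcript of all, from a gene of chromosome 2, differed by less than its spread. It had 22869, 19032 and 16345 CPM in peach and 15352, 16954 and 26444 CPM in almond, with a log2 fold change of −0.01 ± 0.27 (SE).

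By chromosome, the share of genes called varied little. It was highest on chromosome 2, where 576 of 2319 tested genes were called (24.8%), and lowest on chromosome 5, with 348 of 1785 (19.5%), so that chromosomes lay between 0.910 and 1.16 times the share of all genes. The others had 19.8% on chromosome 1, 21.7% on chromosome 3, 22.8% on chromosome 4, 20.1% on chromosome 6, 21.5% on chromosome 7 and 22.2% on chromosome 8. Chromosome 2 was also the highest with DESeq2, when tested against the minimum fold, without a minimum fold and with a filter on CPM. Chromosome 5 was the lowest in these as well, except without a minimum fold, where chromosome 1 was lowest at 30.6%.

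Both directions were found on each chromosome. On chromosome 5, 204 genes were higher and 144 lower in peach, whereas on chromosome 7, 196 were higher and 223 lower, and on chromosome 2, 286 were higher and 290 lower. Of the 37 tested genes whose identifiers belong to no chromosome, 14 were called (37.8%, beside 21.4% of all tested genes). Of these 37, 24.3% were higher and 13.5% lower in peach, and these shares rest on few genes.

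Along the chromosomes the calls were counted in stretches of equal gene number. Consecutive windows of 100 tested genes held between 8 and 43 called genes, with a median of 20 over 187 windows. Windows hold far fewer genes than chromosomes, so their range is not compared with that of the chromosomes. Both highest windows held 43, and lay on chromosome 2, at identifier numbers 153800 to 168500, and on chromosome 7, at 31200 to 47300. The lowest window held 8 and lay on chromosome 1, at 267500 to 281100. Of the 18 windows with 30 called genes or more, 6 were among the 23 windows of chromosome 2. All 187 windows held genes called in each direction.

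**Figure D3:**
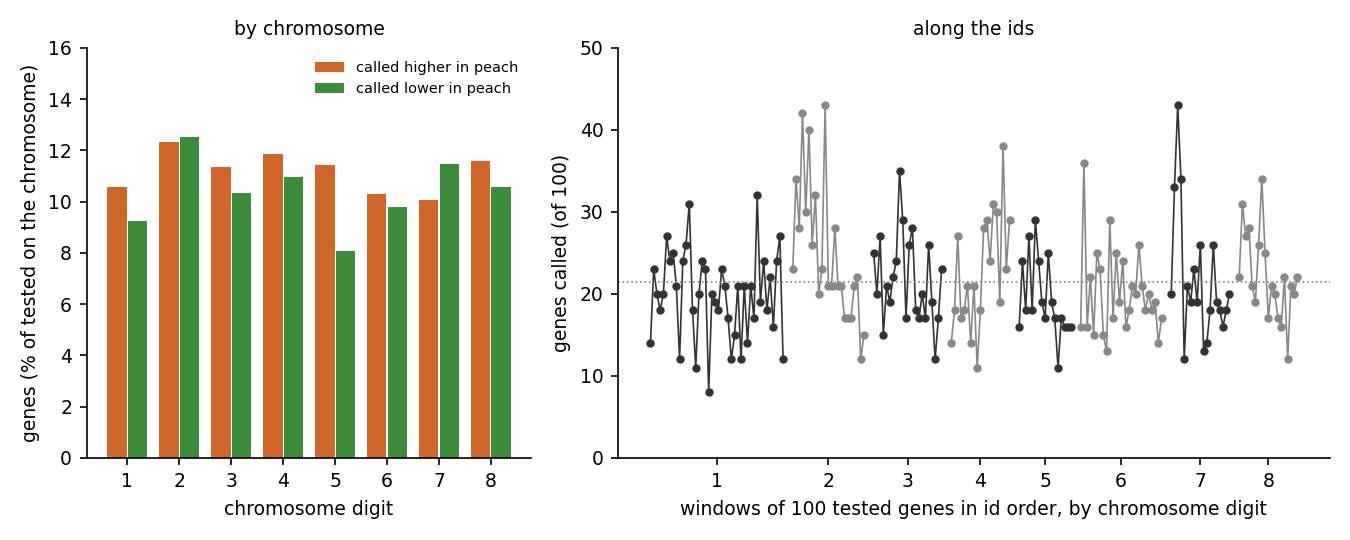
Left, percent of the tested genes of each chromosome called higher and lower in peach, which lies between 8.07% (lower, chromosome 5) and 12.5% (lower, chromosome 2). Right, number of called genes in consecutive windows of 100 tested genes in identifier order along the 8 chromosomes, with a dotted line at 21.4, where single windows range from 8 to 43.

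Genes called in 1 direction were often next to each other. Neighbours were counted on both sides of a called gene. The tested gene next to a gene higher in peach was itself higher in 21.2% of cases, beside 11.1% over all tested genes. It was lower in 10.9% of cases, beside 10.3%. The gene next to a gene lower in peach was lower in 19.2% and higher in 11.8% of cases, beside 10.3% and 11.1% over all tested genes. The shares in the same direction were thus furthest above those of all genes. They declined to 16.3% and 15.1% at a distance of 2 tested genes and to 13.2% and 13.0% at 3, and at 10 the shares were 11.1% and 9.76%.

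The correlation of the log2 fold changes of neighbouring genes was weak, with a Pearson r of 0.142 at a distance of 1, 0.0635 at 2 and 0.00102 at 10, across genes, which are not independent replicates. The excess among neighbours was also found among genes detected in both species. In the 15524 genes detected in all 6 libraries, the neighbour of a higher gene was higher in 14.3% of cases beside a background of 8.59%, and the neighbour of a lower gene was lower in 14.3% beside 8.40%.

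Runs were defined as at least 3 tested genes in a row called in the same direction. There were 83 runs higher in peach, with 286 genes, or 13.5% of the genes called higher, and 75 runs lower in peach, with 259 genes, or 13.2% of those called lower. Most were short, with 63 higher and 54 lower runs of exactly 3 genes, against 9 higher and 8 lower runs of 5 genes or more. The share of tested genes in runs was highest on chromosomes 2 and 8, with 5.002% and 4.32%, and lowest on chromosome 3, with 1.63%. Some runs higher in peach held genes whose size was set by peach library 4, and the neighbour shares above count these genes too. They lay on chromosome 1, at 327300 to 327500, 327700 to 328200 and 328800 to 329000, and on chromosome 6, at 19500 to 19700. Without that library 76 runs were higher in peach.

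**Figure D4:**
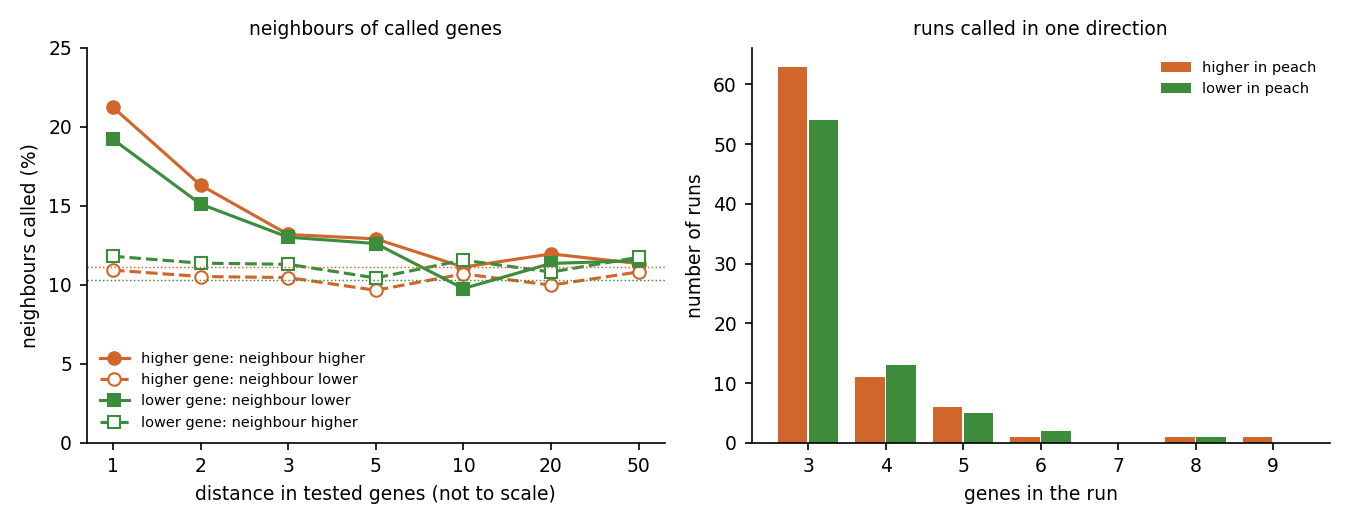
Left, percent of genes called higher or lower in peach at a given distance, in tested genes, from a called gene (filled symbols for the same direction, open symbols for the opposite direction, dotted lines for all tested genes), which starts at 21.2% and 19.2% for the same direction and reaches the level of all genes at a distance of 10. Right, number of runs by their length, most of which have 3 genes and the longest 9.

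The longest run lay on chromosome 8, at identifier numbers 14700 to 15800, and held 9 genes higher in peach. Summed over the 9 genes it had 240, 234 and 256 CPM in the peach libraries, against 0, 0.0552 and 0.947 CPM in the almond libraries. The almond libraries thus held almost no read over the whole run, and 8 of the 9 genes were below the detection limit there. The 2 most abundant genes of the run had 93.3, 96.7 and 93.4 CPM and 78.6, 77.2 and 82.5 CPM in peach with no read in almond, which puts them at least 247-fold and at least 208-fold higher in peach. The hybrid had 106.9, 132.5 and 122.9 CPM over the run. Between 7 and 9 of the 9 genes were called under the alternative settings.

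The longest run lower in peach lay on chromosome 7, at 32700 to 33600, and held 8 genes. Its sum was 16.70, 24.66 and 20.03 CPM in peach, against 322, 302 and 269 CPM in almond, and 243, 230 and 215 CPM in the hybrid. Here the peach libraries held reads in most of the genes. The most abundant of the run in almond had 4.22, 7.23 and 5.12 CPM in peach, against 108, 92.8 and 77.8 CPM in almond. All 8 genes were called under every setting. The run lies within the window of chromosome 7 that held 43 called genes.

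A run of 8 genes on chromosome 1, at 498100 to 498900, carried the most RNA of all runs. Its sum was 15083, 13600 and 21024 CPM in peach, against 3396, 4059 and 5404 CPM in almond, and 8105, 8692 and 8158 CPM in the hybrid. The run thus took 1.61% of all gene CPM in peach and 0.438% in almond, a 3.87-fold difference. Most of it came from 5 genes at over 1000 CPM in each peach library. The most abundant of them had 4649, 4031 and 6440 CPM in peach, against 572, 660 and 1103 CPM in almond. Another had 1963, 1754 and 2818 CPM in peach, against 144, 206 and 226 CPM in almond, so that neighbours in the run differed in fold. Between 4 and 8 of its genes were called under the alternative settings.

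**Figure D5:**
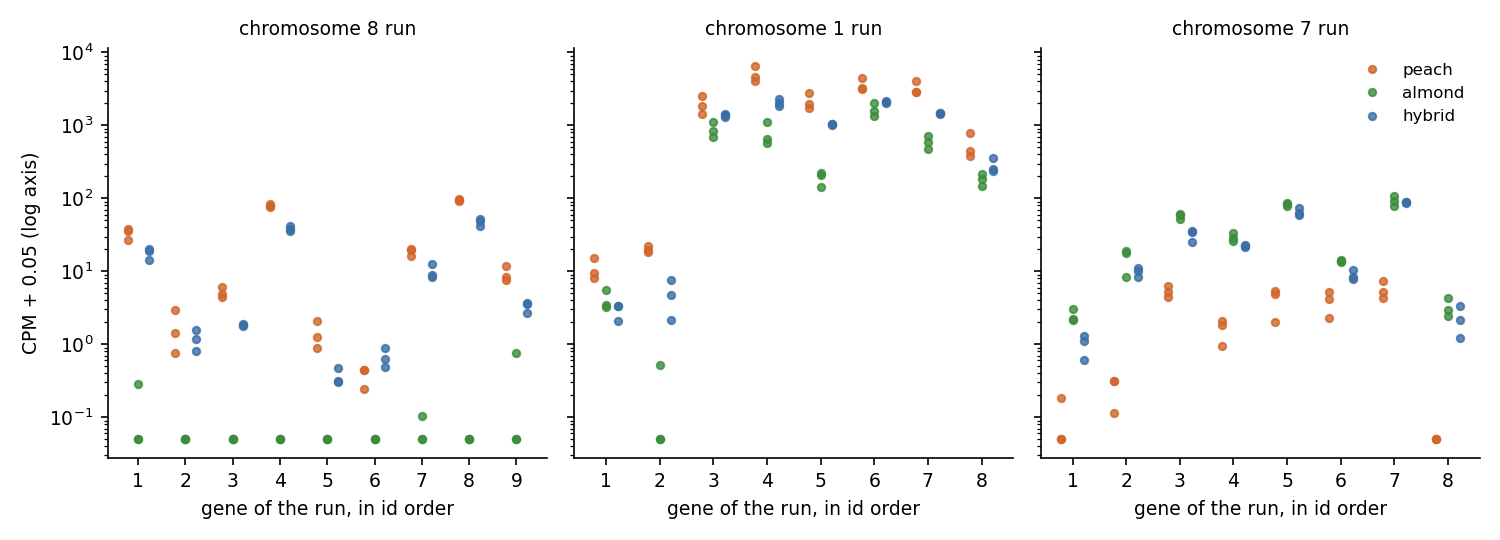
Level of each gene (CPM + 0.05, log axis) in the 3 peach, 3 almond and 3 hybrid libraries, for the longest runs, with genes in identifier order. In the chromosome 8 run nearly all almond points lie at the bottom of the axis, whereas in the chromosome 1 run genes 3 to 8 are abundant in both species, and in the chromosome 7 run peach lies below almond at each gene. The hybrid lies between the parents at most genes.

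Prupe.1G475400.1 and Prupe.4G225300.1, named above as higher in peach, each had a run close by, in the opposite direction on chromosome 1 and in the same direction on chromosome 4. On chromosome 1, a run of 6 genes lower in peach at 476400 to 477400 followed shortly after Prupe.1G475400.1, the abundant gene that was higher in peach. The sum of this run was 10.01, 8.15 and 24.9 CPM in peach, against 139, 93.1 and 218 CPM in almond, and 27.7, 55.4 and 83.0 CPM in the hybrid, and between 4 and 6 of its genes were called under the alternative settings. On chromosome 4, a run of 6 genes higher in peach at 226000 to 226600 stood near Prupe.4G225300.1. It had 343, 440 and 452 CPM in peach, against 17.7, 23.4 and 11.7 CPM in almond. The hybrid had 644, 453 and 593 CPM over this run, above each peach library.

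Several short runs were abundant as well. A run of 4 genes on chromosome 4, at 147000 to 147300, summed to between 2167 and 2313 CPM in peach, against 379 to 647 CPM in almond, and to 1774 to 3698 CPM in the hybrid. A run of 3 genes on chromosome 7, at 51400 to 51800, summed to 96.4 to 137 CPM in peach, against 1001 to 3676 CPM in almond. Both kept the species apart in every library, although the almond libraries of the chromosome 7 run spread more than 3-fold.

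In the hybrid most called genes lay between the parents. The mean of the hybrid libraries was between the peach and the almond means in 90.2% of the genes higher in peach and in 87.9% of the genes lower in peach. On a scale with the lower parent at 0 and the higher parent at 1, the median position was 0.447 for genes higher in peach and 0.455 for genes lower in peach. Of the genes higher in peach 152 had a hybrid mean above both parents and 56 below both, and of the genes lower in peach 173 and 64. The called genes were chosen for a gap between the parents, which favours a hybrid mean inside that gap. The same shares over all tested genes are not given here, so these values have no background beside them. Tested directly, the hybrid differed from almond in 7.55% of the genes and from peach in 7.44%, fewer than the 21.4% between the parents. These comparisons share the parental libraries.

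The study listed 9 genes with a possible part in DNA methylation, and none of them was called between peach and almond. The RNA-dependent RNA polymerase genes were picked by the study for their levels in these samples, and the others by their annotation. RNA-dependent RNA polymerases make double-stranded RNA that is cut into small RNAs, DNA methyltransferases add methyl groups to cytosines and DNA demethylases remove them. Of the 9 genes, 8 were tested, and 0 were called by edgeR and 0 by DESeq2, beside 21.4% of all tested genes by edgeR. By each tool 2 of the 8 had an unadjusted p under 0.05, beside 42.6% of all tested genes by edgeR. Their median log2 fold change was −0.25, beside 0.00 over all genes, with 6 values below 0.

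The methyltransferase gene Prupe.8G038800.1 had 15.3, 19.8 and 19.4 CPM in peach, against 23.0, 39.9 and 36.5 CPM in almond. Its species did not overlap, and its log2 fold change of −0.87 ± 0.22 (SE) had an adjusted p of 0.0092 in edgeR's test but was less than 2-fold. Without almond library 1 it was −1.07, past the minimum fold. The demethylase gene Prupe.6G119100.1 had 5.39, 5.97 and 6.85 CPM in peach, against 4.84, 2.87 and 1.42 CPM in almond, with a log2 fold change of 1.0 ± 0.41 and an adjusted p of 0.086. Without almond library 1 it was 1.48 with an adjusted p of 0.022, and would have been called.

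The more abundant genes of the list were close in both species. The demethylase gene Prupe.7G005000.1 had 205.1, 165.4 and 133.7 CPM in peach, against 224, 194 and 182 CPM in almond (log2 fold change −0.25 ± 0.18). The demethylase gene Prupe.7G118000.1 and the methyltransferase gene Prupe.6G322700.1 had log2 fold changes of −0.16 ± 0.18 and 0.05 ± 0.17. The methyltransferase gene Prupe.7G183100.1 had 2.34, 5.50 and 3.39 CPM in peach, against 8.40, 3.97 and 6.87 CPM in almond, which overlap. The remaining methyltransferase gene, Prupe.6G011600.1, was too low to be tested, with 36, 26 and 8 counts in peach and 2, 0 and 0 counts in almond.

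Both RNA-dependent RNA polymerase genes varied more within a species than between them. Prupe.1G332600.1 had 1.23, 1.06 and 4.33 CPM in peach libraries 1, 3 and 4, against 3.06, 5.74 and 2.01 CPM in almond libraries 1, 2 and 3. Its log2 fold change was −0.72 ± 0.68 (SE, adjusted p = 0.46, edgeR). Prupe.1G334500.1 had 2.34, 2.25 and 4.86 CPM in peach, against 2.29, 6.68 and 2.13 CPM in almond (log2 fold change −0.25 ± 0.59). In each gene peach library 4 and almond library 2 were the highest of their species.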

How the data were processed

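RNA-seq libraries of 3 peach and 3 almond leaf samples were compared, and the 3 hybrid libraries shared the fit. Per the paper's methods, the authors made the deposited counts from TruSeq stranded mRNA libraries, read as pairs on a NextSeq 500, by aligning to peach transcripts joined with representative transposable elements using Bowtie2 through RSEM, and kept sense reads only. Their versions are not given in the sources used here. The deposited counts are whole and not normalized. Every count is even, which is read here as 2 counts for each read pair, though the sources used here do not state this. The main test used the counts as deposited. A line that held 2 records was split. The labels call the libraries biological replicates. Tables of methylation and of rlog values were not used.

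Differences were tested with edgeR 4.0.16 in R 4.3.3 (filterByExpr by genotype, TMM factors between 0.943 and 1.05, glmQLFit and glmQLFTest, genotype as the only term), with Benjamini-Hochberg adjustment over all tested genes and transposable element families. DESeq2 1.42.0 was an alternative. Descriptions and figures were made in Python 3.11.15 (numpy 2.4.6, scipy 1.17.1, pandas 2.3.3, matplotlib 3.10.9). Depth was 7485763 to 17725455 read pairs per library, and limits of detection (3 read pairs) cover counting error only. Scripts were tested on simulated data.

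The genes, lists and tests were chosen with earlier results of these data known. Named genes were the study's 9 DNA methylation genes and, in each direction, the largest fold among genes above the limit in all 6 libraries and the most abundant called gene. The rule held 6 of each kind and all genes of the longest runs. Since no annotation of these identifiers was used here, the others are described without identifiers, and the planned gene lists by function and tissue markers were not run. The alternatives were DESeq2, a test against the minimum fold, no minimum fold, a stricter adjusted p, other scalings and filters, only the parents in the fit, a replicate block, halved counts and each library left out. Leaving out almond library 2 and peach library 4 together, and fold changes at the bound, were added after seeing the data.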

Additional observations from a re-analysis of the deposited data

How the results depend on the processing

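No gene called in the main comparison was called in the opposite direction under any alternative. The counts of genes higher and lower in peach, 2119 and 1958, were 1240 and 1115 when tested against the minimum fold and 3239 and 2966 without a minimum fold. They were 2308 and 2154 with DESeq2, 1642 and 1482 at an adjusted p under 0.01, 1954 and 2115 with library totals only, and 1880 and 1886 without almond library 2 and peach library 4. With halved counts 2051 were higher and 1930 lower, of 17990 tested genes. Leaving out 1 library gave 1963 to 2093 higher and 1777 to 2024 lower. The runs, 83 higher and 75 lower, numbered 41 and 38 against the minimum fold, 156 and 131 without it, and 74 to 79 and 57 to 72 with 1 library left out. The median log2 fold change of all tested genes was −0.023 with upper quartile scaling, −0.073 with library totals only, −0.0028 with a CPM over 1 in 3 libraries, −0.0085 without both libraries named above, and −0.018 to 0.023 with 1 library left out. The share of genes within a log2 fold change of 0.5, 48.3%, was 51.5% with that CPM filter, 47.2% without both libraries and 46.1% to 46.9% with 1 library left out. Fewer or more genes pass the minimum fold or the filter by construction, and for the other changes the cause was not tested.

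The labels do not say that the numbers of the libraries pair them. Peach and almond share only numbers 1 and 3, and the deviations of same-numbered libraries from their species means correlated at −0.0036 and −0.040. These values cannot exclude a pairing. With a replicate block 1786 genes were higher and 1721 lower, and 78.3% of the calls were shared. Prupe.1G021800.1 then had a log2 fold change of −1.60 with an adjusted p of 0.098.

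Depth limits the comparison for weakly expressed genes, above all in almond libraries 1 and 3, and absence in almond cannot be told apart from reads that did not align to peach transcripts.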

Other observations

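The 23 genes higher in peach that owed their size to peach library 4 were not spread evenly along the identifiers. On chromosome 1, 7 of them lay at identifier numbers 327300 to 329000. Their summed level was 213, 110 and 5553 CPM in peach libraries 1, 3 and 4, against 19.0, 10.9 and 29.1 CPM in almond libraries 1, 2 and 3, and 1.70, 3.997 and 4.675 CPM in the hybrid libraries. In peach library 4 this stretch was thus more than 20 times as high as in the other peach libraries, and in the hybrid it was below each library of either parent. On chromosome 6, 3 more of the 23 were neighbours, at 19500 to 19700, with 32.2, 19.9 and 698 CPM in peach, against 2.80, 2.10 and 3.20 CPM in almond, and 3.33, 7.93 and 12.4 CPM in the hybrid. These genes were chosen after their values were seen, and what sets peach library 4 apart was not tested.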
